A study of Mus musculus with 4 samples.

Results

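The cells described here were the microglia and tumor macrophages of the mouse HGG-MYCN brain tumor, the C1q-expressing myeloid cells that share the tumor with its malignant, vascular and other immune cells. They were chosen by their own transcripts: a cell was selected on at least 3 different genes of C1qa, C1qb, C1qc, Csf1r and Ms4a7, at least 5 unique molecular identifiers (UMIs, each standing for 1 captured RNA molecule) over these 5 genes and at least 1 UMI of Tyrobp. A selected cell could hold at most 1 gene of each set that marks dendritic cells (Cd209a, Flt3, Ccr7, Siglech), T cells (Cd3d, Cd3e, Cd3g) or vessels (Cldn5, Flt1, Rgs5, Vtn), and fewer than 5 UMIs of the tumor reporters FLUC (firefly luciferase) and humanNMYC. The rule found 658 cells among the 10975 kept in 4 tumors, and they are called C1q+ cells below.

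The tumors came from hGFAP-cre::TP53Fl/Fl::lsl-MYCN mice, in which Cre under the hGFAP promoter deleted Trp53 and switched on human MYCN with luciferase from a loxP-stop-loxP transgene at Rosa26. The ages compared were 43 days (P43, mice 4 and 5) and 70 days (P70, mice 6 and 7), with the same genotype throughout and without a tumor-free or Cre-negative group. Tumor tissue was digested with papain and DNase, freed of red blood cells, sorted for 7-AAD-negative living cells and sequenced with 10x Genomics 3' v3.1 chemistry. The study's methods describe single-index libraries and the labels dual-index ones; the libraries of older tumors were not analysed here. Since Cre acts in cells of the neural lineage, the C1q+ cells were host cells and carried no switched-on transgene by design. Each mouse was 1 library, so age cannot be told apart from the preparation of its libraries. The study names the tissue as olfactory bulb/tumor and describes P43 as early onset and P70 as further developed tumors. Age can thus also not be told apart from tumor stage or from how much olfactory bulb was taken.

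Microglia are the resident macrophages of the brain parenchyma and arise from the yolk sac, whereas border macrophages line the meninges, the choroid plexus and the perivascular spaces. Monocytes from the bone marrow can enter a tumor and become macrophages there. All of these depend on signals through the CSF1 receptor, and most make C1q, the recognition molecule of the classical complement pathway.

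Mouse 4 gave 3430 barcodes and 3319 kept cells, mouse 5 gave 1739 and 1455, mouse 6 gave 2972 and 2732, and mouse 7 gave 3693 and 3469. A cell was kept with at least 200 genes, under 25% mitochondrial UMIs and at most 40000 UMIs; this upper limit and the limits on genes of other cell types were the treatment of doublets, and no doublet caller was run. The C1q+ cells had median UMI counts of 4861, 8739.5, 5860.5 and 2633.5 in mice 4, 5, 6 and 7, against 1416, 4170, 4050.5 and 10682 in the other kept cells. Summed over the C1q+ cells, the libraries held 107157, 343321, 3053914 and 287636 UMIs, so mouse 6 carried most of the data and mouse 4 the least. Pairs of libraries shared 1 to 3 barcodes, and none belonged to C1q+ cells of both. Y-linked genes did not match the labelled sex in 2 libraries: they summed to 159 counts per 1000000 UMIs (CPM) in the C1q+ cells of mouse 4, labelled female, and to 0 in those of mouse 5, labelled male. Mice 6 and 7 matched their labels, with 165 CPM in the male and 0 in the female.

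The C1q genes set these cells apart in every library, as the rule required, and the same cells led in apolipoprotein E, the lipid receptor Trem2 and cathepsin B (Ctsb). The C1q values describe the cells, since the same transcripts chose them. Apoe, Trem2 and Ctsb were not part of the rule, and no test was made of any of these genes. C1qa, the A chain of C1q, stood at 6934, 2723, 3801 and 4207 CPM in the C1q+ cells of mice 4, 5, 6 and 7 and at 0.865 to 27.9 CPM in all other kept cells. With 10 CPM added to both sides, the lowest ratio over the 4 mice was 101 for C1qa, 84.0 for C1qb and 83.8 for C1qc. Apoe, which carries cholesterol and other lipids, followed with a lowest ratio of 19.2, Trem2 with 11.6 and the membrane protein Ms4a7 with 9.87. The other genes of the leading 20 included the receptors C3ar1, Adgre1 (F4/80), Cx3cr1 and Csf1r, the chemokine Ccl12 and the cytoskeletal protein Aif1 (Iba1). All 5 marker genes were seen in 4 of 26 cells of mouse 4, 13 of 42 of mouse 5, 308 of 490 of mouse 6 and 46 of 100 of mouse 7. The limit of 5 marker UMIs was met narrowly, with 5 or 6 UMIs, by 0, 0, 9 and 6 cells, while 20, 15, 161 and 9 other cells held 3 or 4 of them.

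**Figure D1:**
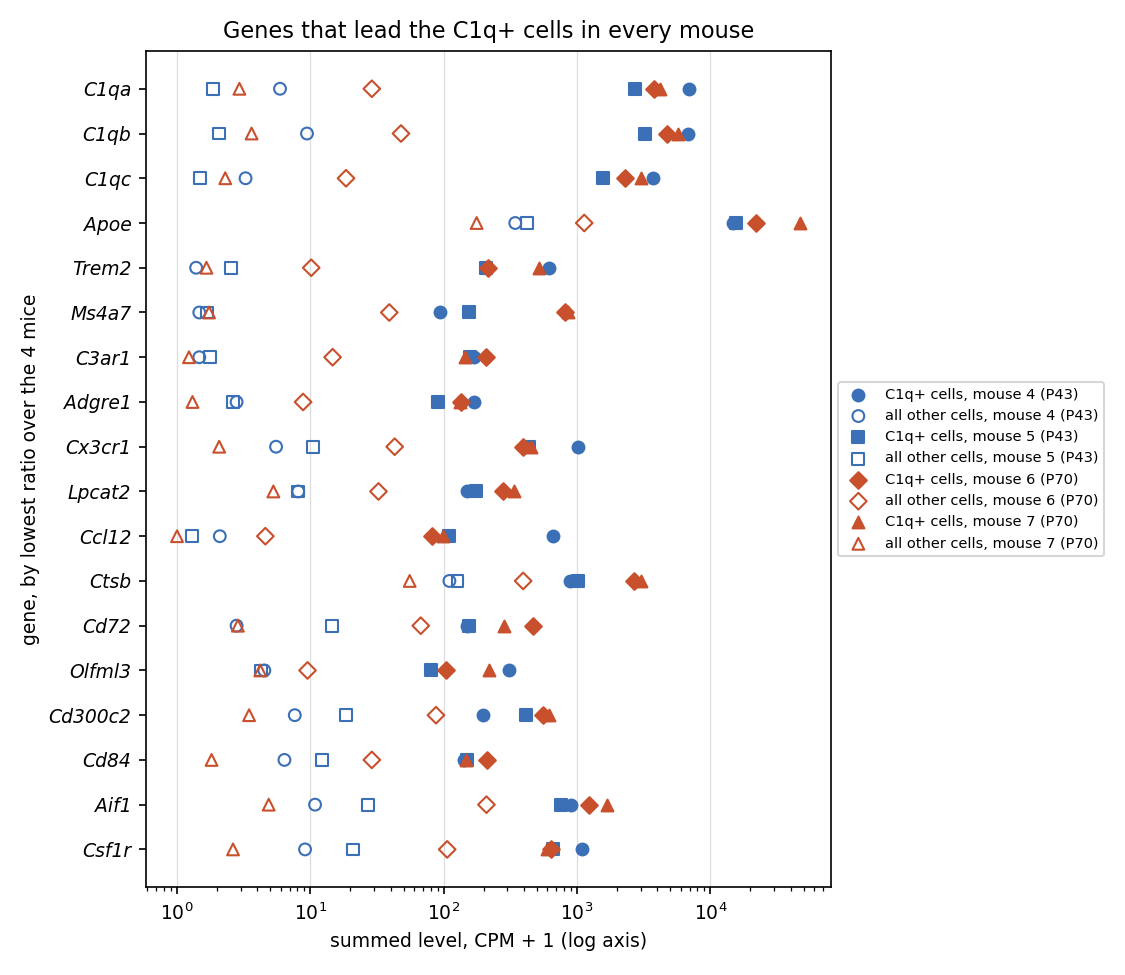
Summed level of 18 of the 20 leading genes (CPM + 1, log axis) in the C1q+ cells (filled) and in all other kept cells (open) of each mouse, P43 in blue and P70 in orange. The C1q genes lie farthest apart, and in the other cells mouse 6 (open diamonds) has the highest level for each of these genes.

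C1qa, C1qb and C1qc are neighbours on chromosome 4 (GRCm38), on the minus strand, at chr4:136895917-136898803, chr4:136880129-136886187 and chr4:136889804-136893065. Promoters of RefSeq on GRCm38.p6 (250 bases before to 50 after the start) were found for 13 of 17 genes, those of the rule with Tyrobp and those called between the ages below. The core motif of PU.1, a transcription factor that macrophages depend on, was searched as GAGGAAGT on both strands. It occurred in 1052 of 32851 promoters (3.20%) and in those of 2 of the 13 genes, C1qc and Retnla. They are shown with their neighbour C1qb and with Gpnmb, the gene with the largest rise below. Capitals mark the motif, here on the opposite strand, and a match describes the letters alone. The windows are chr4:136892865-136893164, minus strand for C1qc, chr4:136886151-136886450, minus strand for C1qb, chr16:48842359-48842658, plus strand for Retnla and chr6:49036268-49036567, plus strand for Gpnmb.
C1qc promoter: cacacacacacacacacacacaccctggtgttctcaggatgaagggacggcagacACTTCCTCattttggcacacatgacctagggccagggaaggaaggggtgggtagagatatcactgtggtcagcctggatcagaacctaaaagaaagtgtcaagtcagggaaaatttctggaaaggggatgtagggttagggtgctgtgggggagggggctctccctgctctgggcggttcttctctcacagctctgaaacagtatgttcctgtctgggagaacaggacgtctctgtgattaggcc
C1qb promoter: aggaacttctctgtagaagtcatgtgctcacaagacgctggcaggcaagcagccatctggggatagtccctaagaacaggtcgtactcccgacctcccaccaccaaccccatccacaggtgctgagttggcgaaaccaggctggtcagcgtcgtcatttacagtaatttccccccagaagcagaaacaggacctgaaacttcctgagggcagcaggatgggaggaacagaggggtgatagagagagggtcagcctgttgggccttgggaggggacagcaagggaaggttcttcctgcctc
Retnla promoter: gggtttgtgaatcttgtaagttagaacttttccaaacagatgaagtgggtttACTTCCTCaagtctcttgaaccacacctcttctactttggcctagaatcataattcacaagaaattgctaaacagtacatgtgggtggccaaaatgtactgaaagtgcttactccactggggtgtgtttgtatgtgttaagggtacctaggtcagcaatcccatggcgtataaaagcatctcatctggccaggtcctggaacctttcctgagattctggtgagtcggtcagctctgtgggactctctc
Gpnmb promoter: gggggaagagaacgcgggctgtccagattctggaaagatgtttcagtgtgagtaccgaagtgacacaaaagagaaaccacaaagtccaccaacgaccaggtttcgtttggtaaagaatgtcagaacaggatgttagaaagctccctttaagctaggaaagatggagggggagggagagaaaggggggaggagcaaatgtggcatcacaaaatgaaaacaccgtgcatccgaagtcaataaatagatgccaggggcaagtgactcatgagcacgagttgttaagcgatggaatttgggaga

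At least 2 genes of a microglia set were detected in a minority of the C1q+ cells of each mouse. To compare cells of different depth, each was thinned to 2000 UMIs, which left 17, 39, 464 and 67 C1q+ cells in mice 4, 5, 6 and 7 and set aside 9, 3, 26 and 33. A thinned cell was counted for a gene set if it had a UMI of at least 2 of its genes. Of the thinned cells, 58.8%, 64.1%, 94.0% and 77.6% had neither 2 of 8 microglia genes (P2ry12, Tmem119, Sall1, Gpr34, P2ry13, Olfml3, Fcrls, Sparc) nor 2 of 8 border macrophage genes (Mrc1, Pf4, Lyve1, Cd163, F13a1, Cbr2, Folr2, Stab1). Among these, 3, 7, 238 and 15 cells had at least 2 of the 4 monocyte genes Ly6c2, Ccr2, Plac8 and Chil3. Of all thinned dendritic cells, 38.9%, 25.5%, 40.2% and 26.3% met the monocyte set, and of the reporter-positive cells 0%, 0%, 2.32% and 0.041%. P2ry12, the purinergic receptor of resting microglia, was found in 4 of 17, 6 of 39, 22 of 464 and 6 of 67 thinned cells. No background share is given for P2ry12 alone, so these counts are a description. Sall1, which marks microglia among macrophages, stood at 37.3, 5.83, 2.95 and 0 CPM. Without thinning, 42.3%, 33.3%, 21.8% and 26.0% of the cells had 2 microglia genes, and 34.6%, 45.2%, 72.9% and 69.0% had 2 genes of neither class. Sparc is not particular to microglia here, at 4323 to 5430 CPM in endothelial cells and 392, 26.2, 12.1 and 10.4 CPM in C1q+ cells. At either depth a cell can carry such genes without a UMI of them. These shares therefore describe detection, and the share of microglia was not read from them. Since a minority met the microglia set, the cells are called here by the rule that chose them.

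Genes of other cells were mostly low in the C1q+ cells. The 8 genes of the oligodendrocyte lineage, which the OL-like tumor cells express, summed to 243, 99.0, 63.5 and 181 CPM, against 2679 to 14896 CPM in the other cells. The other lists summed to at most 37.3 CPM for astrocytes, 10.4 for neurons and neuroblasts, 36.0 for endothelium, 18.7 for mural cells, 18.7 for T and NK cells, 28.0 for B cells, 2.91 for erythroid cells and 38.2 for the 2 transgenes, some of which the rule limited. The 9 dendritic cell genes, 4 of them limited by the rule, summed to 364, 99.0, 25.5 and 41.7 CPM, against 39.2, 154, 430 and 10.1 CPM in the other cells, and 345 of the 364 CPM were Siglech, which the microglia list also holds. The 6 neutrophil genes, with S100a9 as the most abundant, summed to 9401 CPM in mouse 6 but to 0, 5.83 and 0 CPM in mice 4, 5 and 7. In mouse 6, 60 of 490 C1q+ cells (12.2%) had any such UMI, as had 48 of 371 reporter-positive cells (12.9%) at a median of 6986 UMIs, and 15 C1q+ cells held 5 or more.

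C1q+ cells made up a small share of every tumor but that of mouse 6. They were 26 of 3319 kept cells in mouse 4 (0.783%, exact 95% binomial interval 0.512 to 1.15), 42 of 1455 in mouse 5 (2.89%, 2.09 to 3.88), 490 of 2732 in mouse 6 (17.9%, 16.5 to 19.4) and 100 of 3469 in mouse 7 (2.88%, 2.35 to 3.50). Mouse 6 stood alone, and mouse 7 lay beside mouse 5, so the ages overlapped. The mean was 1.84% ± 1.49 (SD, n = 2 mice) at P43 and 10.4% ± 10.6 at P70, and the difference of 8.57 points was not significant (exact two-sided permutation test over mice, p = 0.67). It came to 1.05 points without mouse 6 and to 16.1 points without mouse 7. With 2 mice against 2, this test cannot give a p under 0.33, and the intervals cover counting error only. When all kept cells were thinned to 2000 UMIs before the rule was applied, the shares were 1.29%, 2.56%, 20.4% and 1.95%.

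Cells with border macrophage genes were frequent at P43 and rare at P70. After thinning to 2000 UMIs they were 5 of 17 C1q+ cells in mouse 4 (29.4%, interval 10.3 to 56.0), 9 of 39 in mouse 5 (23.1%, 11.1 to 39.3), 9 of 464 in mouse 6 (1.94%, 0.891 to 3.65) and 3 of 67 in mouse 7 (4.48%, 0.933 to 12.5). Both P43 mice thus lay above both P70 mice. The same set was met by 0 of 315, 0 of 205, 1 of 345 and 0 of 2462 reporter-positive cells thinned alike, the counts of 0 allowing up to 1.16%, 1.78% and 0.150% (upper ends of the exact intervals), and their median depths were 19443, 23850.5, 6986 and 12913 UMIs. The mean was 26.2% ± 4.48 (SD, n = 2) at P43 and 3.21% ± 1.79 at P70, a difference of -23.0 points at the smallest p the exact two-sided permutation test allows (p = 0.33). Without thinning the difference was -34.1 points, and with at least 3 genes required it was -12.6 points.

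The share with microglia genes did not separate the ages. It was 29.4% (interval 10.3 to 56.0) in mouse 4, 17.9% (7.54 to 33.5) in mouse 5, 4.09% (2.48 to 6.32) in mouse 6 and 19.4% (10.8 to 30.9) in mouse 7, so mouse 6 was low and mouse 7 lay between the P43 mice (difference -11.9 points, exact permutation p = 0.67). In mouse 6 the reporter-positive cells reached 3.77%, a share whose interval (2.02 to 6.36) overlaps that of the C1q+ cells. The dendritic cells of mouse 6, at a median of 5908 UMIs close to that of the C1q+ cells, met the set in 0 of 281 thinned cells, which allows up to 1.30% (upper end of the exact interval), and in 1 of 297 without thinning. After thinning, the interval of the C1q+ cells of mouse 6 thus lay above that of its dendritic cells and overlapped that of its reporter-positive cells. Without thinning, 21.8% (18.3 to 25.8) of its C1q+ cells and 12.7% (9.46 to 16.5) of its reporter-positive cells had 2 of the genes, and with 3 genes required after thinning the counts were 4 of 464 and 0 of 345. The difference came to -6.20, -17.7, -4.28 and -19.6 points without mice 4, 5, 6 and 7.

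Most C1q+ cells carried MHC class II transcripts at either age. At least 2 of H2-Aa, H2-Ab1, H2-Eb1 and Cd74 were seen in 82.4%, 92.3%, 88.1% and 94.0% of thinned cells, with 0.635%, 0%, 16.5% and 0.569% in reporter-positive cells (difference between the ages 3.76 points, exact permutation p = 0.67). The background was again highest in mouse 6. The sign of the difference turned to -1.22 points without mouse 4.

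Few C1q+ cells had cell cycle genes. At least 2 of Top2a, Mki67, Birc5, Cdk1, Tpx2, Ccnb1, Cenpf and Ube2c were found in 1 of 17, 0 of 39, 23 of 464 and 2 of 67 thinned cells, that is 5.88%, 0%, 4.96% and 2.99%. The count of 0 of 39 allows a share of up to 9.03% by the upper end of its exact interval. Reporter-positive cells, which included the dividing tumor cells, reached 38.3% to 43.5%, and no cycling was read from single cells (difference between the ages 1.03 points, exact permutation p = 1.0). The part of free tumor cell RNA in these shares was not tested.

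**Figure D2:**
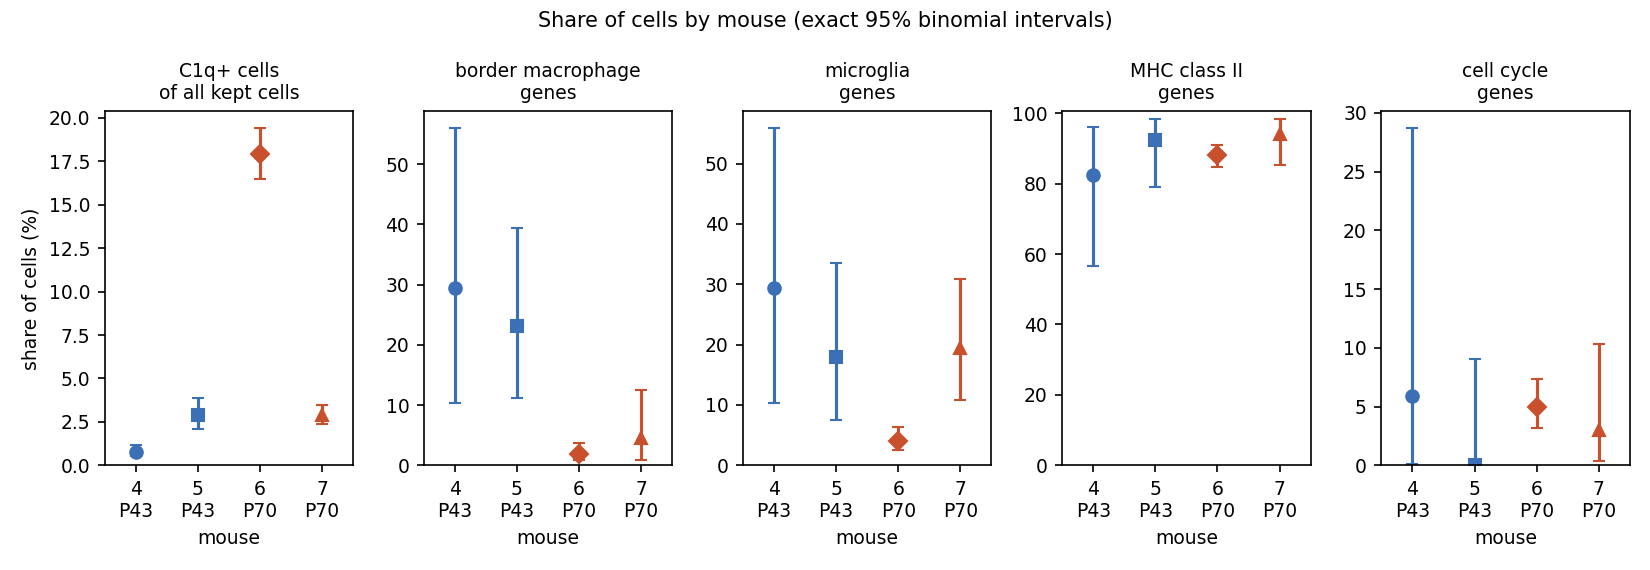
Share of cells (%) in each mouse, with exact 95% binomial intervals as bars, for C1q+ cells among all kept cells (left) and for C1q+ cells with at least 2 genes of each named set after thinning to 2000 UMIs. Mouse 6 stands alone at 17.9% in the first panel, and in the second both P43 mice (29.4% and 23.1%) lie above both P70 mice (1.94% and 4.48%).

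To find which genes differed between the ages, UMI counts were summed over the C1q+ cells of each mouse and tested over 4418 genes with edgeR's quasi-likelihood test and Benjamini-Hochberg adjustment. At an adjusted p under 0.05, 5 genes rose at P70 (0.113% of those tested) and 7 fell (0.158%). Those that rose were Gpnmb, Il1b, Ctsb, Fth1 and Ms4a7, and those that fell were Retnla, Mgl2, Cd163, Mrc1, Clec4b1, Abca9 and Naaa. In all 12 both P70 mice lay outside the range of the P43 mice, which also held for 19.4% of the tested genes in the higher and 23.7% in the lower direction. A gene near 0 at 1 age could enter the test only through the mice of the other age, so such counts describe the genes. Ms4a7 belongs to the rule, so its change is a description. At an unadjusted p under 0.05 there were 520 genes, and the sums of mouse 4 rested on 26 cells. With 1 mouse left out the count grew to 188 (without mouse 4), 53 (mouse 5), 145 (mouse 6) and 235 (mouse 7), with 11, 10, 12 and 12 of the 12 genes among them.

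The genes that fell were led by Retnla, Mgl2, Cd163 and Mrc1, known from alternatively activated and border macrophages. They are not particular to these cells: Mgl2 stood at 540 and 653 CPM in the dendritic cells of mice 4 and 5. Retnla (chr16:48842551-48844461), which encodes the secreted protein RELM-alpha, had 46 and 405 UMIs in mice 4 and 5 (429 and 1180 CPM) and 0 UMIs in both mice 6 and 7. Its mean was at least 141-fold lower at P70, with 3 counts per library taken as the floor. Retnla entered the test only through the P43 mice. Its adjusted p of 0.033 (edgeR's quasi-likelihood test) belongs to the fitted difference and not to this bound. This bound was 207-fold without mouse 4, 75.2-fold without mouse 5, 77.1-fold without mouse 6 and 819-fold without mouse 7. At P43 it came from 2 of 17 and 6 of 39 thinned cells. Mgl2 (chr11:70130329-70137550), a galactose-binding lectin, stood at 131, 874, 2.62 and 6.95 CPM, and both P70 values rested on 8 and 2 UMIs. Their mean of 4.79 CPM lay under the mean floor of 5.71 CPM, against which the P43 mean was 88.0-fold higher, so the fitted size is uncertain. Its log2 fold change was -7.26 ± 1.04 (SE; edgeR's quasi-likelihood test, adjusted p = 0.0496), the mice of P43 differing widely from each other; it came to -7.98 without mouse 4, -5.14 without mouse 5 and -6.07 without mouse 6. Mrc1 (chr2:14229392-14332057), the mannose receptor CD206, stood at 560, 507, 11.1 and 41.7 CPM and fell by 4.70 ± 0.61 on the log2 scale (edgeR's quasi-likelihood test, adjusted p = 0.047), with a log2 fold change of -3.57 without mouse 6 and -5.49 without mouse 7. It was found in 7 of 17, 14 of 39, 11 of 464 and 6 of 67 thinned cells, against at most 0.290% of reporter-positive cells. Cd163 (chr6:124304656-124330527), the receptor that clears haemoglobin bound to haptoglobin, had 10, 14, 0 and 0 UMIs. It was at least 11.8-fold lower at P70 against the same floor. It too entered the test only through the P43 mice, and its adjusted p of 0.0496 (edgeR's quasi-likelihood test) belongs to the fitted difference. The bound ran from 6.43-fold without mouse 6 to 68.3-fold without mouse 7, and Cd163 did not enter the test without mouse 4 or without mouse 5.

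The other 3 genes that fell are less bound to 1 class of macrophage. Clec4b1, a C-type lectin receptor, stood at 299, 195, 16.0 and 31.3 CPM (log2 fold change -3.52 ± 0.47, SE). Abca9, a transporter of the ABC family, stood at 112, 117, 11.5 and 13.9 CPM (-3.21 ± 0.38). Naaa, a lysosomal enzyme that breaks down N-acylethanolamines, stood at 187, 297, 35.4 and 17.4 CPM (-3.02 ± 0.44). In each the ages did not overlap, and the adjusted p was 0.047, 0.047 and 0.0496 (edgeR's quasi-likelihood test). In mouse 7 these levels rested on 9, 4 and 5 UMIs. Without mouse 6 the log2 fold change of Clec4b1 was -2.83 and that of Naaa -3.72, and without mouse 5 Abca9 was not called (edgeR's quasi-likelihood test, adjusted p = 0.059).

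The genes that rose included a membrane glycoprotein of lipid-laden macrophages, a cytokine, a lysosomal protease and the heavy chain of ferritin. Gpnmb (chr6:49036546-49070929), the glycoprotein, stood at 0, 2.91, 198 and 143 CPM, or 0, 1, 604 and 41 UMIs. Its log2 fold change was 6.26 ± 0.69 (SE; edgeR's quasi-likelihood test, adjusted p = 0.043; 4.34 with cells thinned to 2000 UMIs), and the ratio of the pooled levels was 87.0 with a counting interval of 15.6 to 3440. Without mouse 5 no UMI was left at P43, and the fitted log2 value of 10.65 is no bound. It was present in 0 of 17, 1 of 39, 56 of 464 and 10 of 67 thinned cells, while reporter-positive cells reached 2.61% in mouse 6. At this level and depth a cell can carry Gpnmb without a UMI of it, so the share of cells that express it was not read from these counts. Il1b (chr2:129364570-129371139), the cytokine interleukin-1 beta, stood at 373, 655, 3459 and 2382 CPM, a log2 fold change of 2.52 ± 0.33 (edgeR's quasi-likelihood test, adjusted p = 0.047). It was seen in 23.5%, 51.3%, 86.2% and 80.6% of thinned cells and in 0%, 0%, 8.41% and 0.244% of reporter-positive cells.

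Ctsb, the cysteine protease cathepsin B, stood at 887, 1011, 2679 and 3004 CPM (log2 fold change 1.63 ± 0.22, SE). Fth1, which stores iron, stood at 7382, 9076, 20466 and 17985 CPM (1.27 ± 0.18), and both had an adjusted p of 0.047 with edgeR's quasi-likelihood test. Ms4a7 stood at 93.3, 154, 815 and 848 CPM. In these 3 genes the mice of each age lay close to each other beside the gap between the ages.

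**Figure D3:**
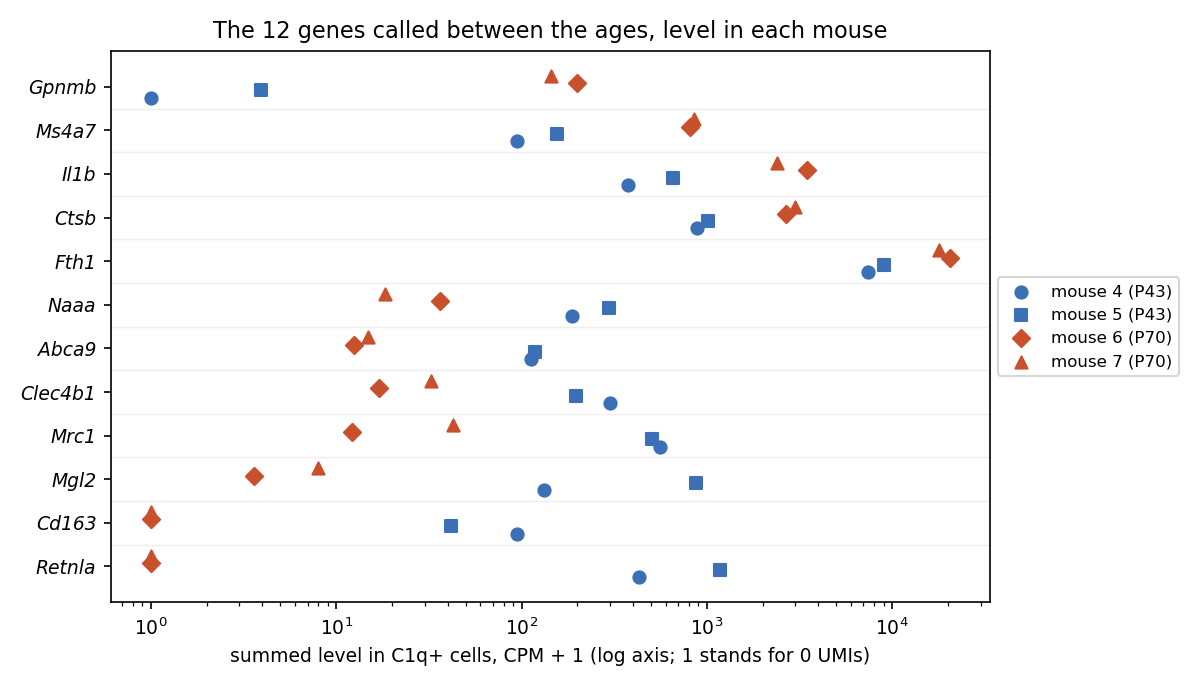
Level of the 12 called genes in the C1q+ cells of each mouse (CPM + 1, log axis, P43 in blue and P70 in orange; a value of 1 stands for 0 UMIs). In each of the 12 genes the symbols of the 2 ages do not overlap, and Retnla and Cd163 were without a UMI in both P70 mice.

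The count depended on which cells were summed. When cells with at least 2 border macrophage or 2 microglia genes were set aside, a step chosen after the values were seen that left 9, 19, 357 and 69 cells, 4 genes were called, 3 of them among the 12 (Retnla, Il1b and Mgl2), with 251 at an unadjusted p under 0.05. That step left 2528 genes to test and used Mrc1 and Cd163 themselves. Of the 9 genes outside the call, Abca9 and Cd163 did not enter the test. The log2 fold changes of the others were -4.95 for Mrc1, -3.41 for Clec4b1, -2.79 for Naaa, 2.81 for Ms4a7, 1.76 for Ctsb, 0.96 for Fth1 and 9.37 for Gpnmb. Nothing is read from Mrc1, which decided which cells were removed, nor from Ms4a7, which belongs to the rule. Gpnmb had 1 UMI at P43 before this step, so its fitted value of 9.37 is no bound. Without the 15 cells of mouse 6 that held neutrophil RNA, also chosen afterwards, 10 genes were called and 9 of them were among the 12. Mgl2, Cd163 and Naaa fell outside at an adjusted p of 0.051 each (edgeR's quasi-likelihood test), with log2 fold changes of -7.88, -8.74 and -3.01. The value for Cd163 is a fitted one over 0 UMIs in both P70 mice and no measured size. Only the bound given above holds for it.

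Of 16 border macrophage genes, 11 were tested and 2 were called, Mrc1 and Cd163, both lower at P70. Both P70 mice were lower in 6 of the 11 (beside 23.7% of all tested genes) and higher in 2 (beside 19.4%). Cbr2 and Cd163 had 0 UMIs in both P70 mice, and Gas6 had 9 and 4. These genes could enter the test only through the P43 mice, so the count of 6 is a description. Over all 16 genes the median log2 ratio of the mean CPM at P70 to that at P43 was -1.31 (10 CPM added to both), beside -0.037 over all tested genes. Lyve1, a hyaluronan receptor of vessel-associated macrophages, had 28, 7, 0 and 0 UMIs and did not enter the test. The reductase Cbr2 had 7, 11, 0 and 0 UMIs (not called). F13a1, a coagulation factor subunit, stood at 345, 105, 51.1 and 20.9 CPM and Pf4, a chemokine, at 373, 102, 32.1 and 139 CPM; neither was called. Cd38, a NAD-consuming enzyme, went the other way in value, at 18.7, 37.9, 64.8 and 101 CPM.

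None of the 10 tested homeostatic microglia genes, of 16 listed, was called, and the list's median log2 ratio was -0.81. One of the 10 was higher and 2 were lower in both P70 mice, shares not above those of all tested genes (19.4% and 23.7%). The fractalkine receptor Cx3cr1 stood at 1017, 437, 392 and 448 CPM, with mouse 4 above the other 3 mice. Tmem119, a membrane protein of microglia, had its higher values at P70 (46.7, 20.4, 75.3 and 111 CPM), whereas P2ry12 stood at 224, 40.8, 26.9 and 45.2 CPM.

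The monocyte list moved in both directions in value, and none of its 10 tested genes, of 13, was called. Ly6c2, a surface protein of classical monocytes, stood at 224, 102, 1438 and 400 CPM, Plac8 at 327, 323, 1671 and 459 CPM and the chitinase-like Chil3 at 0, 0, 255 and 93.9 CPM. In these 3 genes both P70 mice were higher, mouse 6 most. The chemokine receptor Ccr2, also a gene of classical monocytes, stood at 924, 1241, 274 and 302 CPM, lower in both P70 mice. Thbs1, an adhesive matrix protein, stood at 0, 49.5, 442 and 532 CPM. Lyz2, the lysozyme of myeloid cells and the most abundant of the list, stood at 10461, 8593, 6945 and 11136 CPM and the ages overlapped. The list's median log2 ratio was 0.82.

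Genes of lipid-associated and disease-associated macrophages had the highest median of the 16 lists. It was 0.99 over 17 genes, beside -0.037 over all tested genes, and 2 of 15 tested genes were called, Gpnmb and Ctsb, both higher at P70. Both P70 mice were higher in 10 of the 15 (19.4% of all tested genes) and lower in none (23.7%). Apoe, the most abundant gene of the cells by the mean of the 4 mice, stood at 14885, 15449, 21961 and 46656 CPM (not called), mouse 7 being the highest. In both P43 mice Cd74 and the actin-binding Tmsb4x (20288 and 20998 CPM) stood above it. The fatty acid binding protein Fabp5 stood at 84.0, 119, 381 and 699 CPM, the lipid droplet protein Plin2 at 131, 122, 410 and 435 CPM and the tetraspanin Cd63 at 205, 370, 663 and 1596 CPM. These 3 genes were not called. Trem2, the receptor of this program, stood at 616, 207, 213 and 521 CPM, so the ages overlapped, as they did for the lipoprotein lipase Lpl at 131, 102, 50.1 and 209 CPM.

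Of 15 tested genes of phagocytosis, scavenging and the lysosome none was called, 8 were higher in both P70 mice (19.4% of all tested genes), none was lower (23.7%) and 7 overlapped, with a median log2 ratio of 0.36 over 16 genes. The protease Lgmn stood at 616, 530, 1377 and 1644 CPM and the sphingolipid activator precursor Psap, the most abundant of the list, at 2174, 3364, 4783 and 4162 CPM. Of the 7 iron genes 5 were tested and Fth1 was called; 4 were higher in both P70 mice (against 19.4% of all tested genes) and 1 was lower (23.7%), Ncoa4 at 56.0, 64.1, 49.8 and 55.6 CPM. The light chain of ferritin, Ftl1, stood at 4451, 4261, 5528 and 8233 CPM (not called), and the iron exporter Slc40a1 at 9.33, 2.91, 4.26 and 17.4 CPM.

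Among 20 cytokines and chemokines 16 were tested and Il1b alone was called, while the list's median log2 ratio was -0.23. Both P70 mice were higher in 4 of the 16 and lower in 4, near the shares over all tested genes (19.4% and 23.7%). The chemokine Ccl5, which attracts T cells, stood at 644, 221, 2013 and 1669 CPM, Ccl4 at 159, 99.0, 906 and 243 CPM and Cxcl16 at 392, 350, 1041 and 584 CPM, each higher at P70 in value. The monocyte attractant Ccl2 stood at 411, 288, 73.0 and 48.7 CPM and the cytokine Tnf at 149, 105, 35.7 and 13.9 CPM, each lower. Cxcl9, which recruits CXCR3-bearing T cells, stood at 1139, 17.5, 190 and 27.8 CPM and was highest in mouse 4, then in mouse 6. Il10 had a UMI in mouse 6 only, at 0.982 CPM.

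The list of immunosuppressive and alternative activation genes split. Retnla and Mgl2 fell, and 2 of 11 tested genes were called in all, but the list's median log2 ratio over 14 genes was 0.75, and 6 of the 11 were higher in both P70 mice and 2 were lower (19.4% and 23.7% over all tested genes). The growth factor Vegfa stood at 0, 5.83, 160 and 52.1 CPM, the TGF-beta-induced matrix protein Tgfbi at 411, 667, 1969 and 953 CPM and Havcr2, which encodes TIM-3, at 28.0, 67.0, 248 and 212 CPM. None of these 3 was called.

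Antigen presentation genes were abundant at both ages, and none was called. Cd74, the invariant chain of MHC class II, stood at 20083, 24441, 15077 and 12912 CPM, H2-Aa at 7512, 9659, 6332 and 5924 CPM and their transactivator Ciita at 233, 210, 99.5 and 48.7 CPM. All 3 were lower in both P70 mice, as were 5 of the 9 tested class II genes and 23.7% of all tested genes, and the median log2 ratio over 10 genes was -0.36. In the MHC class I list (median 0.085, 10 of 11 tested) and the interferon-stimulated list (median 0.076, 18 of 18 tested) the ages overlapped for every tested gene. Both lists instead differed between mice of the same age: class I genes summed to 11712, 7227, 14131 and 7489 CPM and interferon-stimulated genes to 10816, 5700, 13204 and 5347 CPM, so mice 4 and 6 stood above mice 5 and 7. The Y-linked genes divided the libraries in the same pairs, mice 4 and 6 against mice 5 and 7, and with 2 libraries on each side sex and library cannot be told apart.

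None of the 12 tested genes of complement and Fc receptors, of 14, was called (median log2 ratio -0.12). Properdin, Cfp, stood at 93.3, 227, 40.9 and 27.8 CPM, lower in both P70 mice. The activating receptor Fcgr4 stood at 56.0, 46.6, 206 and 111 CPM, higher in both, and the shared signalling chain Fcer1g, the most abundant of the list, at 2473, 2240, 3462 and 3202 CPM. Among myeloid transcription factors none of the 12 tested, of 14, was called (median 0.086). Maf, a factor of macrophage differentiation, stood at 607, 285, 147 and 174 CPM and Cebpb at 74.7, 221, 1308 and 275 CPM, while Spi1, which encodes PU.1, stood at 439, 399, 506 and 379 CPM with overlapping ages. For the growth factor and cytokine receptor list, none of 12 tested genes, of 15, was called (median 0.073), with Ifngr1, the interferon-gamma receptor chain, at 345, 329, 198 and 261 CPM.

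None of the 18 immediate early genes was called. Both P70 mice were lower in 12 and higher in 2 (23.7% and 19.4% over all tested genes), and the median log2 ratio was -0.57. These genes also respond to tissue dissociation. Jun stood at 1726, 1258, 415 and 817 CPM, the inhibitor of NF-kappa-B Nfkbia at 1120, 743, 300.3 and 275 CPM and Klf2 at 541, 370, 40.9 and 83.4 CPM, while Atf3 had its higher values at P70 (187, 484, 709 and 817 CPM). Handling of the tissue was not tested. None of the 8 cell cycle genes had the counts to be tested (median 0.75).

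**Figure D4:**
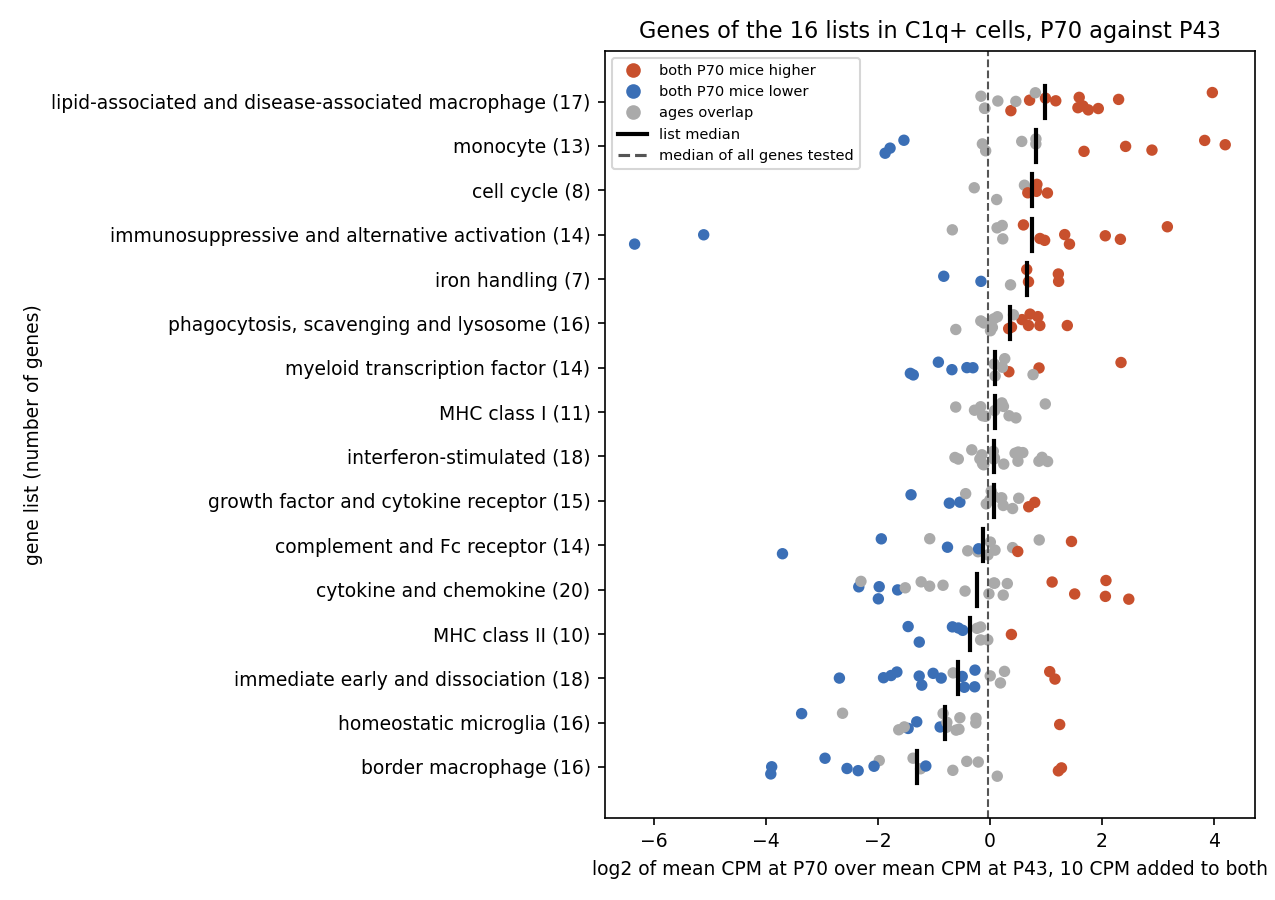
Log2 ratio of mean CPM at P70 to mean CPM at P43 (10 CPM added to both) in C1q+ cells for every gene of the 16 lists, 1 point per gene, with the list median as a black bar and the median of all 4418 tested genes as a dashed line. Lipid-associated and disease-associated macrophage genes have the highest median (0.99) and border macrophage genes the lowest (-1.31), and points coloured orange or blue are genes whose mice do not overlap between the ages.

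Dendritic cells of the same tumors, 27, 56, 297 and 22 cells, were used to ask whether these changes differed from those of another myeloid class. The difference of the age change was called for 23 of 5261 genes (0.437%; edgeR's quasi-likelihood test with mouse as a block). It was greater in C1q+ cells for 11 genes and lower for 12. The 5 lowest p-values belonged to S100a9, S100a8, Lcn2, Camp and Retnlg, genes of neutrophils, and 5 or more UMIs of the neutrophil list were carried by 1 dendritic cell of mouse 5 and by 15 C1q+ and 2 dendritic cells of mouse 6. Without such cells 21 genes were called, 6 greater and 15 lower (an alternative added after the values were seen). The 15 include Siglech, which the rule limited in C1q+ cells, and nothing is read from it. In both fits the difference of the age change, C1q+ minus dendritic, was positive for the inhibitory Fc receptor Fcgr2b, Psap and Plin2, at 2.46 ± 0.43 (SE), 1.40 ± 0.24 and 2.21 ± 0.45 on the log2 scale. None of the 3 was called with age in C1q+ cells alone. Fcgr2b stood at 168, 396, 462 and 292 CPM in C1q+ cells, where the ages overlapped, and at 111, 189, 42.9 and 46.1 CPM in dendritic cells, lower in both P70 mice. Psap stood at 2117, 2071, 1708 and 1030 CPM in dendritic cells, also lower in both. Plin2 stood at 131, 122, 410 and 435 CPM in C1q+ cells and at 118, 92.8, 63.0 and 138 CPM in dendritic cells. The difference was negative for Mgl2 and Nfkbia, at -3.84 ± 0.72 and -1.69 ± 0.33. Mgl2 stood at 540, 653, 55.9 and 123 CPM in dendritic cells, lower at P70 there too. Nfkbia stood at 747, 842, 751 and 1137 CPM in dendritic cells and was not called with age in C1q+ cells.

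For 7 of the 12 called genes the P70 mice lay on the same side in dendritic cells as in C1q+ cells, outside the range of the P43 mice. Over the genes tested against dendritic cells, 19.2% lay higher and 19.1% lower in this way in dendritic cells. Mouse 7 had 22 dendritic cells, and its lowest level above 0 among the 12 genes was 15.4 CPM. Abca9 and Cd163 stood at 29.1 and 21.8 CPM in the dendritic cells of mouse 5. A value of 0 in mouse 7 is therefore weak ground for placing it lower, and the count of 7 is a description. Mgl2, given above, was the only one of the 7 whose difference was called. In dendritic cells Il1b stood at 533, 388, 1526 and 1598 CPM, Mrc1 at 166, 69.1, 4.35 and 0 CPM and Clec4b1 at 166, 63.7, 8.15 and 15.4 CPM. Their differences were not called (edgeR's quasi-likelihood test, adjusted p = 0.55, 0.95 and 0.99), which does not show that they were alike. Abca9 stood at 55.4, 29.1, 2.72 and 0 CPM, Cd163 at 166, 21.8, 2.72 and 0 CPM and Naaa at 471, 469, 222 and 138 CPM, and their differences were not called either (edgeR's quasi-likelihood test, adjusted p = 0.99, 0.63 and 0.098). Retnla (0 CPM in all 4 mice), Gpnmb (0, 0, 0.543 and 0) and Ms4a7 (0, 0, 7.60 and 0) were at or near 0 in dendritic cells, so nothing is read from their missing calls. For Ctsb and Fth1 the log2 differences of 1.29 ± 0.30 and 0.90 ± 0.21 had an adjusted p of 0.085 each in the same edgeR test, with Ctsb at 284, 269, 388 and 261 CPM and Fth1 at 4733, 5397, 5119 and 9114 CPM in dendritic cells, where the ages overlapped for both. Without mouse as a block edgeR called no gene (239 at an unadjusted p under 0.05), so the 23 rest on the block in edgeR. DESeq2 called 1 gene, and the cause of that fall was not tested. Leaving out mice 4, 5, 6 and 7 gave 61, 53, 18 and 61 genes.

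Endothelial cells, 488, 490, 237 and 34 in mice 4, 5, 6 and 7, served as a class outside the immune system. The age change differed for 214 of 9122 genes (2.35%; edgeR's quasi-likelihood test with mouse as a block), 57 higher and 157 lower in C1q+ cells. These counts include C1qa and Csf1r, which the rule used, and Siglech, which it limited, and nothing is read from them. In endothelial cells, 28 of the 214 genes stayed under 10 CPM in the means of both ages, and 80 of the 157 lower ones were highest in mouse 6. For those genes a change in endothelial cells was not told apart from background. Of the 18 immediate early genes, 9 were called. Nfkbia stood at 833, 844, 1288 and 2038 CPM in endothelial cells and at 1120, 743, 300.3 and 275 CPM in C1q+ cells, a log2 difference of -2.46 ± 0.47. For Fabp5 the difference was 3.13 ± 0.58, with 311, 17.1, 32.7 and 43.4 CPM in endothelial cells, where mouse 4 alone was high. Fth1 stood at 2321, 1561, 14475 and 4135 CPM in endothelial cells, higher in both P70 mice there too, and its difference was not called (-0.69 ± 0.53; edgeR's quasi-likelihood test, adjusted p = 0.82). For Cd74 the difference was -2.81 ± 0.62, but in endothelial cells it stood at 56.9, 26.5, 376 and 14.5 CPM, and 21.7% of reporter-positive cells of mouse 6 held a Cd74 UMI, so that value was not told apart from background. The count was 19 without the block, 25 with DESeq2, and 161, 68, 39 and 141 without mice 4, 5, 6 and 7.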

How the data were processed

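Per the labels and the study's methods, the authors aligned the reads to mm10 (GRCm38) with Cell Ranger 6.0.2 and deposited whole-number UMI counts per gene and barcode. From these counts, cells were kept, selected and compared with Python 3.11.15, numpy 2.4.6, scipy 1.17.1 and R 4.3.3. CPM values are UMIs summed over the cells of a class in a mouse, per 1000000 of their total. The mouse was the replicate. Ages were compared with edgeR 4.0.16 (filterByExpr, TMM, quasi-likelihood F test, Benjamini-Hochberg over all genes tested), tested on simulated data first, and shares with an exact permutation test over mice. Nothing in the labels says which libraries were prepared together. The members and the gene lists were chosen with earlier results of these data known. Named are the genes of the rule, those of 16 lists that passed the test or were abundant in their list, up to 15 called genes in each direction, and the 20 leading genes; further list members were named after their values were seen. DESeq2 1.42.0 and other filters were alternatives. Values of some listed genes are not reported here. The intervals and floors cover counting error only. Gene positions come from GENCODE vM21 (GRCm38).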

Additional observations from a re-analysis of the deposited data

Results flagged for a closer look

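In 3 results the change with age differed between C1q+ cells and another class of cell by a test of the difference itself (edgeR's quasi-likelihood test with mouse as a block). The lectin Mgl2 had a log2 difference of -3.84 against dendritic cells (adjusted p = 0.016 in that test). Its P70 levels in C1q+ cells rested on 8 and 2 UMIs, so the size is uncertain. Over all genes, 23 of 5261 (0.437%) differed from dendritic cells and 214 of 9122 (2.35%) from endothelial cells. These counts became 0 and 19 without the block, and 1 and 25 with DESeq2.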

How the results depend on the processing

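The 12 genes called between the ages became 69 with DESeq2, 267 with no filter on genes, 42 with cells thinned to 2000 UMIs, 7 with mitochondrial UMIs under 10%, 21 with at most 1 UMI of other cell types, 19 with at least 10 marker UMIs, 4 without cells with border macrophage or microglia genes (chosen after seeing the data), and 53 to 235 with 1 mouse left out, where the lone mouse of an age is assumed to vary like the other age. Of these, 11, 12, 11, 7, 11, 12, 3 and at least 10 were among the 12. With equal cell numbers 12 genes were called again, but 5 of them among the 12. With RLE size factors, another scaling of the libraries, 9 genes were called, all among the 12. Mgl2, Cd163 and Naaa then had an adjusted p of 0.058 each (edgeR's quasi-likelihood test). With mitochondrial UMIs under 10% these 3 genes had an adjusted p of 0.055 each in the same test. Against dendritic cells, 23 became 68 with no filter, 0 without the replicate block (239 at an unadjusted p under 0.05 in edgeR), 1 with DESeq2 and 18 to 61 with 1 mouse left out. Against endothelial cells, 214 became 19 without the block, 25 with DESeq2 and 39 to 161 with 1 mouse left out. The difference in the MHC class II share ran from -1.22 to 8.74 points with 1 mouse left out. The cycling share differed by -1.18 points with cells thinned to 1000 UMIs, and by -1.91 to 3.97 points with 1 mouse left out. The cause of these moves was not tested. None of the 173 fold changes of the 12 genes under these alternatives changed sign, and 26 lost the call. The genes were chosen by their call in these same counts, and their mice did not overlap between the ages. A kept sign was thus largely fixed in advance, and nothing is read from it. Sizes moved: Mgl2 from -7.26 to -5.14 without mouse 5, Mrc1 from -4.70 to -3.57 without mouse 6 and Gpnmb from 6.26 to 4.34 with thinned cells. With equal cell numbers Mgl2 came to -8.81, Abca9 to -3.87 and Mrc1 to -3.92. Depth limited mouse 4 most: 3 UMIs stand for 28.0, 8.74, 0.982 and 10.4 CPM in mice 4, 5, 6 and 7.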
